A study of Mus musculus with 9 samples.

Results

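Genes that govern whether a lymphocyte leaves a tissue or stays in it were followed in 3 populations of innate lymphocytes from the epithelium of the mouse small intestine. The 9 genes were chosen by name, with earlier results of these data known. They were the transcription factors Klf2 and Klf3, the sphingosine-1-phosphate (S1P) receptors S1pr1, S1pr4 and S1pr5, the surface proteins Cd69 and Cd44, and the regulators of G protein signalling Rgs1 and Rgs2. Each of the 9 symbols stood on 1 row of the array table, and the 9 genes were tested among 19938 genes.

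The cells came from NOD-SCID mice aged 8 to 10 weeks, a strain that lacks mature T and B cells, and all were gated as CD3- CD45+ lymphocytes before they were divided by 2 surface markers. The populations were Ly49E+CD8aa+, Ly49E+CD8aa- and Ly49E-CD8aa+, where Ly49E is an inhibitory receptor of natural killer cells encoded by Klra5 and CD8aa is a dimer of 2 CD8 alpha chains. Each population had 3 Affymetrix Mouse Gene 1.0 ST arrays, which the labels call biological replicates. How many mice each array stands for was not stated in the labels, so the p-values measure the spread between these arrays.

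Lymphocytes leave tissues by following S1P, which is scarce in tissue and abundant in lymph and blood, through the receptor S1PR1. KLF2 switches on S1pr1, and CD69 binds S1PR1 and takes it off the cell surface, so lymphocytes that stay in a tissue are known for low KLF2 and S1PR1 and for CD69 on their surface. Intraepithelial lymphocytes are a textbook example of such resident cells.

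Values are log2 expression values, and a difference of 1 is a doubling. The array medians lay between 5.76 and 5.82, the 25th percentiles between 4.40 and 4.47 and the 75th percentiles between 7.51 and 7.59. Arrays of 1 population correlated at 0.9915 to 0.9941 over the 19938 genes tested, and arrays of different populations at 0.9849 to 0.9937. Different rows carry different probes, so their values are not set against each other as abundances. Ptprc, which encodes CD45, lay between 11.74 and 11.92 on all 9 arrays. Klra5 averaged 11.40 in Ly49E+CD8aa+ cells and 11.43 in Ly49E+CD8aa- cells, against 6.59 in Ly49E-CD8aa+ cells. Cd8a averaged 12.55 in Ly49E+CD8aa+ cells, 11.42 in Ly49E+CD8aa- cells and 12.58 in Ly49E-CD8aa+ cells, so its transcript was lower but still bright in the cells gated as lacking CD8aa. Cd3e, a chain of the CD3 complex, averaged 11.75 in Ly49E+CD8aa+ cells, 10.70 in Ly49E+CD8aa- cells and 11.67 in Ly49E-CD8aa+ cells, above the 75th percentile of every array although the cells were gated as CD3-.

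Of the 9 genes, Cd44 and Klf3 differed between the populations, and both were highest in Ly49E+CD8aa- cells. Cd44 was 6.79-fold lower in Ly49E+CD8aa+ cells than Ly49E+CD8aa- cells, and Klf3 was 2.85-fold lower. Between Ly49E+CD8aa+ and Ly49E-CD8aa+, which share CD8aa and differ in Ly49E, none of the 9 passed the test. The genes at the core of the exit pathway, S1pr1, S1pr4 and S1pr5, passed no test in any pair, and neither did Klf2, Cd69, Rgs1 or Rgs2.

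These counts are set against the whole table. Since the 9 genes and the lists below were chosen with earlier results known, the background is a scale for the counts and not a test of them. By the moderated F test of limma over the 3 populations, 2 of the 9 genes were called at an adjusted p under 0.05, where 2.03% of all genes were. In Ly49E+CD8aa+ against Ly49E-CD8aa+, 0 of 9 were called (background 0.13%), and 1 of 9, Cd44, had an unadjusted p under 0.05 (background 4.18%). At the same unadjusted threshold stood 4 of 9 in Ly49E+CD8aa+ against Ly49E+CD8aa- (background 9.43%) and 3 of 9 in Ly49E+CD8aa- against Ly49E-CD8aa+ (background 10.4%). In Ly49E+CD8aa+ against Ly49E+CD8aa-, 2 of 9 were called lower (background 1.22% called lower and 1.7% called in either direction). In Ly49E+CD8aa- against Ly49E-CD8aa+, 2 of 9 were called higher (background 1.35% called higher and 2.15% in either direction). The last 2 comparisons share the Ly49E+CD8aa- arrays, so they are not independent of each other. In bulk RNA, fewer cells of a type and less RNA per cell cannot be told apart, which holds for every level given here.

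**Figure D1:**
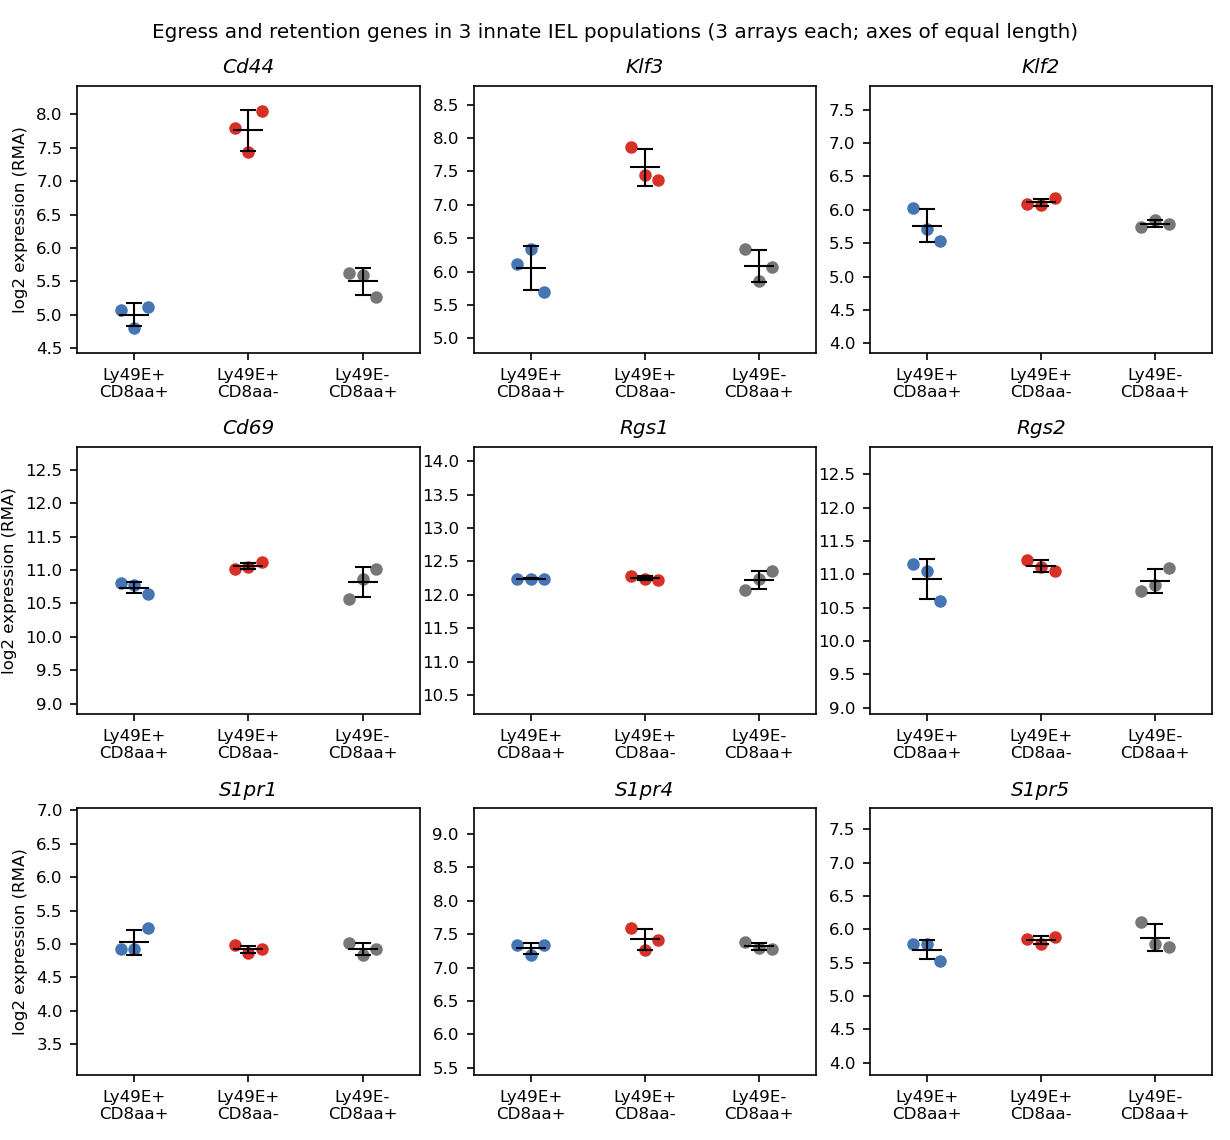
Log2 expression of the 9 genes (vertical axes, of equal length) in the 3 populations, which are named under each panel, with a point for each of the 3 arrays and a bar at the mean with its SD. Cd44 and Klf3 stand higher on the 3 Ly49E+CD8aa- arrays than on the other 6, while the arrays of the S1P receptors and Rgs1 overlap between populations.

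The transcription factors were taken first. Klf2 (transcript cluster 10572800, Entrez gene 16598), the activator of S1pr1, had 6.02, 5.72 and 5.54 in Ly49E+CD8aa+ cells, 6.09, 6.07 and 6.17 in Ly49E+CD8aa- cells, and 5.74, 5.85 and 5.79 in Ly49E-CD8aa+ cells. The 3 Ly49E+CD8aa- arrays were the highest, and they overlapped neither of the other populations, while Ly49E+CD8aa+ spanned the range of Ly49E-CD8aa+. The difference between Ly49E+CD8aa+ and Ly49E+CD8aa- was -0.35 (95% interval -0.61 to -0.10), with an unadjusted p of 0.0117 and an adjusted p of 0.276. Between Ly49E+CD8aa- and Ly49E-CD8aa+ it was 0.32 (95% interval 0.07 to 0.57, adjusted p = 0.314), and between Ly49E+CD8aa+ and Ly49E-CD8aa+ it was -0.03 (-0.29 to 0.22, adjusted p = 1). Klf2 was thus not called in any pair, and in 1 pair this depended on 1 array. That was the first Ly49E+CD8aa+ array, the highest of its population and so the closest to Ly49E+CD8aa-. Without it the difference between these 2 populations was -0.48 with a limma adjusted p of 0.0307, in a range of 0.0307 to 0.518 over the 19 alternatives. Between Ly49E+CD8aa- and Ly49E-CD8aa+ the limma adjusted p ranged from 0.0861 to 0.535, so Klf2 stayed uncalled there.

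Klf3 (transcript cluster 10522051, Entrez gene 16599), a relative of KLF2 that binds CACCC elements and acts mostly as a repressor, had 6.12, 6.33 and 5.69 in Ly49E+CD8aa+ cells, 7.87, 7.45 and 7.37 in Ly49E+CD8aa- cells, and 6.33, 5.86 and 6.07 in Ly49E-CD8aa+ cells. All 3 Ly49E+CD8aa- arrays lay above the other 6, and Ly49E+CD8aa+ and Ly49E-CD8aa+ overlapped. Klf3 averaged 6.05 ± 0.328 in Ly49E+CD8aa+ cells and 7.56 ± 0.272 in Ly49E+CD8aa- cells (SD, n = 3 each), a difference of -1.51 (SE 0.195, limma adjusted p = 0.00392). Against Ly49E-CD8aa+, at 6.09 ± 0.240 (SD, n = 3), Ly49E+CD8aa- was 1.47 higher on the log2 scale, or 2.78-fold (SE 0.195, limma adjusted p = 0.00393). Ly49E+CD8aa+ and Ly49E-CD8aa+ differed by -0.04 (95% interval -0.48 to 0.40, adjusted p = 1).

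The promoters of both factors are shown because KLF factors bind CACCC and related GC-rich sites and because Klf2 itself is controlled through a MEF2 site. The sequences are RefSeq's for the GRCm38.p6 build, 250 bases ending just before the annotated start of each gene, written 5′ to 3′ on the gene's own strand, which is the plus strand for both. Capitals mark CACCC and GGGCGG, each read on both strands, and a MEF2 site, and some capital runs hold overlapping or adjoining matches. Klf2 spans chr8:72318812-72319061 and Klf3 spans chr5:64803271-64803520.
Klf2: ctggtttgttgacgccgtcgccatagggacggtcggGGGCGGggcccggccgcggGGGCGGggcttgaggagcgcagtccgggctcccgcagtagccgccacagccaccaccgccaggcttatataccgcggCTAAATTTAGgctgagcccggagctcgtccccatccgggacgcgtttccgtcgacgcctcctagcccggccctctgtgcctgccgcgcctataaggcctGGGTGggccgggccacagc
Klf3: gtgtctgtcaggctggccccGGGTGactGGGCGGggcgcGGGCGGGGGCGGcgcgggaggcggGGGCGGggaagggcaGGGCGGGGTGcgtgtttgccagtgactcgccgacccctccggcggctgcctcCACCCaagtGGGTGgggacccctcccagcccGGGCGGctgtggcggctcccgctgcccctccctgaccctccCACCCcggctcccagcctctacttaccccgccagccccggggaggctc
The Klf3 window held 5 matches to CACCC and 6 to GGGCGG, counted on both strands. The Klf2 window held 1 match to CACCC, 2 to GGGCGG and 1 MEF2 site. Such matches are common: of 32851 promoter windows of the same length, 52% held CACCC, 32.7% held GGGCGG and 2.92% held a MEF2 site. Of the 9 genes, 6 had a sequence (all but S1pr1, Cd69 and Rgs1), and of these 5 held CACCC, 4 held GGGCGG and 1 held a MEF2 site. Neither TGACTCA, the site of AP-1 factors, nor TGTTTAC, a FOXO-type site, was in any of the 6 windows, where 4.46% and 3.17% of all windows held them.

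The other 15 measured genes of the KLF family gave 0 calls in each of the 3 comparisons. At an unadjusted p under 0.05 they numbered 0 in Ly49E+CD8aa+ against Ly49E-CD8aa+, 2 in Ly49E+CD8aa+ against Ly49E+CD8aa-, and 1 in Ly49E+CD8aa- against Ly49E-CD8aa+. Over all genes, 4.18%, 9.43% and 10.4% stood at this threshold in the same order, and 0.13%, 1.7% and 2.15% were called. The median difference of the family was 0.03 in Ly49E+CD8aa+ against Ly49E+CD8aa-, beside 0.03 over all genes.

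The S1P receptors came next. S1pr1 (transcript cluster 10501586, Entrez gene 13609), the receptor that carries lymphocytes out of tissue, had 4.92, 4.92 and 5.24 in Ly49E+CD8aa+ cells, 4.98, 4.87 and 4.92 in Ly49E+CD8aa- cells, and 5.02, 4.84 and 4.92 in Ly49E-CD8aa+ cells. The arrays of the 3 populations overlapped, and S1pr1 lay below the median of its own array and above the 25th percentile on all 9, a position that reflects probe brightness as well as level. The difference was 0.10 between Ly49E+CD8aa+ and Ly49E+CD8aa- (95% interval -0.12 to 0.32, adjusted p = 0.827), and 0.10 between Ly49E+CD8aa+ and Ly49E-CD8aa+ (-0.12 to 0.32).

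S1pr4, a receptor of lymphoid and myeloid cells, had 7.34, 7.19 and 7.34 in Ly49E+CD8aa+ cells, 7.59, 7.27 and 7.41 in Ly49E+CD8aa- cells, and 7.38, 7.30 and 7.28 in Ly49E-CD8aa+ cells. S1pr5, which natural killer cells use to leave lymph node and bone marrow, had 5.78, 5.78 and 5.53 in Ly49E+CD8aa+ cells, 5.85, 5.78 and 5.89 in Ly49E+CD8aa- cells, and 6.11, 5.78 and 5.74 in Ly49E-CD8aa+ cells. In both genes the arrays of the 3 populations overlapped. Over the 3 receptors and 3 comparisons the 95% intervals of the differences ran from -0.43 to 0.32, so larger differences than these lay outside every interval. The closest to a difference was S1pr5, at -0.18 in Ly49E+CD8aa+ against Ly49E-CD8aa+ (95% interval -0.43 to 0.07, adjusted p = 1).

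Both other receptors measured, S1pr2 and S1pr3, passed no test, nor did any of 9 genes for making, moving and breaking down S1P, of which 0, 0 and 2 had an unadjusted p under 0.05 in Ly49E+CD8aa+ against Ly49E-CD8aa+, Ly49E+CD8aa+ against Ly49E+CD8aa-, and Ly49E+CD8aa- against Ly49E-CD8aa+. The background at this threshold was 4.18%, 9.43% and 10.4% in the same order. A list of 14 genes held signalling genes below the S1P receptors and, beside them, Gpr183. None of the signalling genes was called in any comparison. Gpr183 was the only call, 1 of 14 in Ly49E+CD8aa+ against Ly49E+CD8aa- (background 1.7%, and 1.22% called lower). Gpr183 is not an S1P receptor but the oxysterol receptor EBI2, which positions lymphocytes within tissue. It had 7.35, 6.91 and 6.75 in Ly49E+CD8aa+ cells, 8.87, 8.44 and 9.01 in Ly49E+CD8aa- cells, and 7.57, 8.22 and 7.81 in Ly49E-CD8aa+ cells. The 3 populations did not overlap, and Ly49E-CD8aa+ lay between the others. Gpr183 was 3.41-fold lower in Ly49E+CD8aa+ cells than Ly49E+CD8aa- cells, a difference of -1.77 (SE 0.214, limma adjusted p = 0.00282). The adjusted p was 0.0813 between Ly49E+CD8aa- and Ly49E-CD8aa+ and 0.663 between Ly49E+CD8aa+ and Ly49E-CD8aa+.

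**Figure D2:**
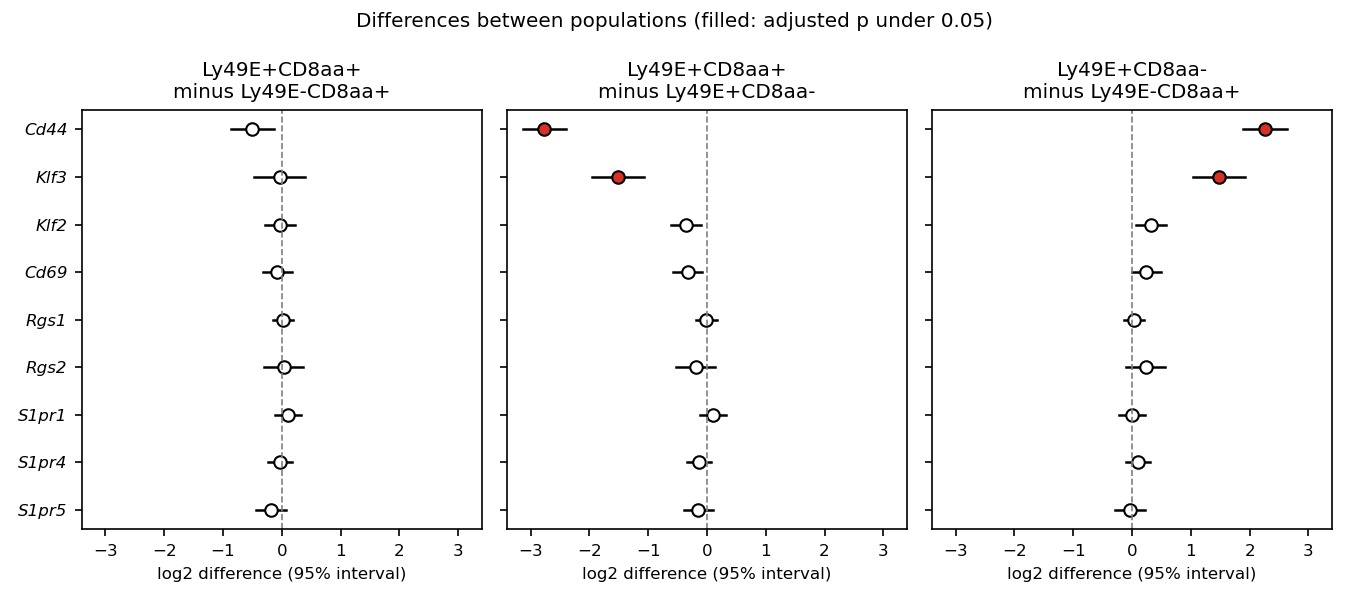
Log2 differences of the 9 genes in each pair of populations, with 95% intervals from the limma fit. Cd44 and Klf3 lie farthest from 0, at -2.76 and -1.51 in Ly49E+CD8aa+ against Ly49E+CD8aa-, and at 2.26 and 1.47 in Ly49E+CD8aa- against Ly49E-CD8aa+.

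The retention side was represented by Cd69 and the RGS genes. Cd69 (transcript cluster 10548333, Entrez gene 12515), whose product holds S1PR1 inside the cell, had 10.80, 10.78 and 10.64 in Ly49E+CD8aa+ cells, 11.02, 11.05 and 11.12 in Ly49E+CD8aa- cells, and 10.57, 10.87 and 11.02 in Ly49E-CD8aa+ cells. Every array lay above its own 75th percentile, and Ly49E+CD8aa- was highest, although its lowest array exceeded the highest of Ly49E-CD8aa+ by less than 0.01. The difference between Ly49E+CD8aa+ and Ly49E+CD8aa- was -0.32 (95% interval -0.57 to -0.08, unadjusted p = 0.0158, adjusted p = 0.321). Cd69 differed by 0.24 between Ly49E+CD8aa- and Ly49E-CD8aa+ (adjusted p = 0.485) and by -0.08 between Ly49E+CD8aa+ and Ly49E-CD8aa+ (adjusted p = 1).

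Counting genes whose arrays did not overlap gives 4 of 9 in Ly49E+CD8aa+ against Ly49E+CD8aa-, Cd44, Klf3, Klf2 and Cd69, all lower (background 12.9%, and 5.52% lower). In Ly49E+CD8aa- against Ly49E-CD8aa+ it gives 4 of 9, all higher (background 12.7%, and 5.29% higher). The count was 1 of 9 in Ly49E+CD8aa+ against Ly49E-CD8aa+, Cd44, which was lower (background 6.25%, and 3.38% lower). The median difference of the 9 genes was -0.19 in Ly49E+CD8aa+ against Ly49E+CD8aa-, beside 0.03 over all genes, and 0.23 in Ly49E+CD8aa- against Ly49E-CD8aa+, beside -0.02.

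Rgs1, which is abundant in gut lymphocytes and shortens chemokine and S1P receptor signals, had 12.24, 12.24 and 12.23 in Ly49E+CD8aa+ cells, 12.28, 12.24 and 12.22 in Ly49E+CD8aa- cells, and 12.08, 12.24 and 12.35 in Ly49E-CD8aa+ cells. All arrays lay within a narrow band, and the populations overlapped. Its 95% intervals ran from -0.18 to 0.20 over the 3 comparisons. Rgs2, an inhibitor of signals through Gq proteins, had 11.15, 11.04 and 10.60 in Ly49E+CD8aa+ cells, 11.22, 11.11 and 11.05 in Ly49E+CD8aa- cells, and 10.75, 10.84 and 11.10 in Ly49E-CD8aa+ cells. Its arrays overlapped too, and with intervals from -0.52 to 0.56 it was measured less tightly than Rgs1. The other 18 measured RGS genes gave 0 calls in all 3 comparisons, with 1, 2 and 1 at an unadjusted p under 0.05 in Ly49E+CD8aa+ against Ly49E-CD8aa+, Ly49E+CD8aa+ against Ly49E+CD8aa- and Ly49E+CD8aa- against Ly49E-CD8aa+. Background shares were 4.18%, 9.43% and 10.4% at this threshold and 0.13%, 1.7% and 2.15% called.

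Within Ly49E-CD8aa+, Cd69, Rgs1 and Rgs2 were all lowest on the first array and highest on the third. In Ly49E+CD8aa- cells Cd69 had the same order, but Rgs1 and Rgs2 were highest on the first array. In Ly49E+CD8aa+ cells Cd69 and Rgs2 were highest on the first array. The summed level of 10 enterocyte markers was highest on the first array in every population, with log2 sums of 13.14, 12.59 and 12.65 in Ly49E+CD8aa+ cells, 13.11, 12.63 and 12.33 in Ly49E+CD8aa- cells, and 13.22, 12.41 and 12.24 in Ly49E-CD8aa+ cells. So Rgs2 was low where that sum was high in Ly49E-CD8aa+ cells and high where it was high in the other populations. Cd69 was low where the sum was high in Ly49E-CD8aa+ and Ly49E+CD8aa- cells, and high where it was high in Ly49E+CD8aa+ cells. The part of these markers in the levels was not tested. None of the 10 enterocyte markers was called in any comparison, and none of 10 endothelial markers, a cell type known to express Klf2 and S1pr1. At most 1 gene of either list had an unadjusted p under 0.05 in a comparison (background 4.18% to 10.4%, by comparison). The endothelial log2 sums were 10.12 to 10.38 in Ly49E+CD8aa+ cells, 9.84 to 10.04 in Ly49E+CD8aa- cells and 10.13 to 10.22 in Ly49E-CD8aa+ cells. These sums rest mainly on Pecam1, which averaged 9.78, 9.37 and 9.67 in the same order. The next brightest row, Vwf, averaged 6.06, 6.02 and 6.05, so the sums say little of the other endothelial markers.

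Cd44 (transcript cluster 10485405, Entrez gene 12505), the hyaluronan receptor that marks activated and memory lymphocytes and tethers them to matrix, differed most. Its promoter is shown as the counterpart of the Klf3 window, from the minus strand at chr2:102901666-102901915, from the same RefSeq table and written in the same way.
Cd44: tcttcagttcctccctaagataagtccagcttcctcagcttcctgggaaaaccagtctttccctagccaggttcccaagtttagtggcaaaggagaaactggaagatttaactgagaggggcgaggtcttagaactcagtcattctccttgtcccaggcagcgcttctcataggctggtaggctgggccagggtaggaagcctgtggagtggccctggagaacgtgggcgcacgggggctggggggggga
It held no match to any of the 5 motifs, so it has no capitals, which says only that these letters are not in this window.

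Cd44 had 5.07, 4.80 and 5.12 in Ly49E+CD8aa+ cells, 7.79, 7.44 and 8.05 in Ly49E+CD8aa- cells, and 5.63, 5.59 and 5.27 in Ly49E-CD8aa+ cells. The 3 populations did not overlap: Ly49E+CD8aa- was highest by a wide gap, and Ly49E+CD8aa+ was lowest. Cd44 lay above the median of its own array on the 3 Ly49E+CD8aa- arrays and below it on the other 6, where no detection call was used, so the folds rest on dim values on that side. Cd44 averaged 5.0 ± 0.171 in Ly49E+CD8aa+ cells and 7.76 ± 0.307 in Ly49E+CD8aa- cells (SD, n = 3 each), a difference of -2.76 (SE 0.163, limma adjusted p = 2.15e-05). Against Ly49E-CD8aa+, at 5.50 ± 0.199 (SD, n = 3), Ly49E+CD8aa- was higher by 2.26, or 4.80-fold (SE 0.163, limma adjusted p = 8.4e-05). Between Ly49E+CD8aa+ and Ly49E-CD8aa+ the difference was -0.50 (95% interval -0.87 to -0.13), with an unadjusted p of 0.0133 and an adjusted p of 1, so it was not called. None of 12 measured genes for CD44 ligands and cytoskeletal partners was called in any comparison, and 0 of 12 had an unadjusted p under 0.05 (background 4.18% to 10.4%, by comparison).

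Other markers and listed genes also differed between the populations. Some were highest in Ly49E+CD8aa- cells, as Cd44 and Klf3 were, while the called dendritic cell markers were highest in Ly49E-CD8aa+ cells. Cd8b1, the CD8 beta chain, averaged 5.28 in Ly49E+CD8aa+ cells, 8.34 in Ly49E+CD8aa- cells and 5.30 in Ly49E-CD8aa+ cells. Its difference was -3.06 in Ly49E+CD8aa+ against Ly49E+CD8aa- (adjusted p = 9.93e-07). Immediate early and stress genes respond to stimulation and to cell handling. Of 19 measured, 5 were called lower in Ly49E+CD8aa+ cells than Ly49E+CD8aa- cells (background 1.22% called lower). In Ly49E+CD8aa- cells 6 were called higher than in Ly49E-CD8aa+ cells (background 1.35% called higher). At an unadjusted p under 0.05 stood 12 of 19 in each of these comparisons (background 9.43% and 10.4%). The largest was Nr4a1, a nuclear receptor induced by antigen receptor signals, at -2.29 and 2.08 in these comparisons (adjusted p = 0.000109 and 0.000193). Next came Gadd45b, a stress response gene, at -1.59 and 1.88, the AP-1 gene Fosb at -1.45 in the first, the NF-kB inhibitor Nfkbia at -1.24 and 1.12, and the phosphatase gene Dusp1 at 0.82 in the second. The log2 sums of the list were 13.13 to 13.33 in Ly49E+CD8aa+ cells, 13.77 to 13.87 in Ly49E+CD8aa- cells and 13.03 to 13.31 in Ly49E-CD8aa+ cells. Of 10 dendritic cell markers, 3 were called lower in Ly49E+CD8aa+ cells than Ly49E-CD8aa+ cells (background 0.13% called in either direction). In Ly49E+CD8aa- cells 4 were called lower than in Ly49E-CD8aa+ cells (background 2.15% in either direction), and none was called between the Ly49E+ populations. Their log2 sums were 10.69 to 10.79 in Ly49E+CD8aa+ cells, 10.81 to 11.01 in Ly49E+CD8aa- cells and 11.01 to 11.53 in Ly49E-CD8aa+ cells. The 3 were Siglech, Cd209d and Ly6d, at -1.98, -1.87 and -1.28 in Ly49E+CD8aa+ against Ly49E-CD8aa+, and Clec9a was the fourth in Ly49E+CD8aa- against Ly49E-CD8aa+, at -0.73. Of 8 macrophage and monocyte markers 1 was called in each comparison with Ly49E+CD8aa- (background 1.7% and 2.15% in either direction). In the same comparisons 2 of 8 had an unadjusted p under 0.05 (background 9.43% and 10.4%). Cd68 of this list went the other way from the called gene and was not called. It averaged 7.50 in Ly49E+CD8aa+ cells, 6.72 in Ly49E+CD8aa- cells and 7.64 in Ly49E-CD8aa+ cells. The called gene was Ccr2, a chemokine receptor of monocytes, which averaged 4.76 in Ly49E+CD8aa+ cells, 6.92 in Ly49E+CD8aa- cells and 5.90 in Ly49E-CD8aa+ cells. Its difference was -2.17 in Ly49E+CD8aa+ against Ly49E+CD8aa- (adjusted p = 0.000274) and 1.02 in Ly49E+CD8aa- against Ly49E-CD8aa+ (adjusted p = 0.022). The log2 sums of the 8 markers overlapped, at 8.53 to 8.60 in Ly49E+CD8aa+ cells, 8.51 to 8.70 in Ly49E+CD8aa- cells and 8.46 to 9.07 in Ly49E-CD8aa+ cells. The part of these genes in the Cd44 and Klf3 results was not tested.

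A list of regulators of KLF2 and of trafficking genes, not all of them for exit, gave 2 calls among 12 measured, both chemokine receptors. Both were called lower in Ly49E+CD8aa+ than Ly49E+CD8aa- (background 1.22% called lower) and higher in Ly49E+CD8aa- than Ly49E-CD8aa+ (background 1.35% called higher). Cxcr4, the receptor for CXCL12 that holds cells in bone marrow and stroma, had 7.08, 6.25 and 6.30 in Ly49E+CD8aa+ cells, 9.15, 10.01 and 9.23 in Ly49E+CD8aa- cells, and 7.69, 7.45 and 7.47 in Ly49E-CD8aa+ cells. The 3 populations did not overlap, with Ly49E+CD8aa- highest. Cxcr4 was 7.57-fold lower in Ly49E+CD8aa+ cells than Ly49E+CD8aa- cells, a difference of -2.92 (SE 0.265, limma adjusted p = 0.000431). It was higher in Ly49E+CD8aa- cells than Ly49E-CD8aa+ cells by 1.93, or 3.80-fold (limma adjusted p = 0.00512). Cxcr3, a receptor for interferon-induced chemokines, averaged 9.33 in Ly49E+CD8aa+ cells, 10.16 in Ly49E+CD8aa- cells and 9.47 in Ly49E-CD8aa+ cells, with differences of -0.82 in Ly49E+CD8aa+ against Ly49E+CD8aa- (adjusted p = 0.0097) and 0.69 in Ly49E+CD8aa- against Ly49E-CD8aa+ (adjusted p = 0.0224).

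Among 14 measured genes of tissue residency, 2 were called in Ly49E+CD8aa+ against Ly49E+CD8aa-, both higher (background 1.7% called in either direction). In Ly49E+CD8aa- against Ly49E-CD8aa+ the calls went both ways, with 2 higher and 2 lower (background 2.15% in either direction). At an unadjusted p under 0.05 stood 7 and 9 of 14 in these comparisons (background 9.43% and 10.4%). Prdm1, which encodes the residency factor Blimp-1, averaged 9.73 in Ly49E+CD8aa+ cells, 9.22 in Ly49E+CD8aa- cells and 9.75 in Ly49E-CD8aa+ cells. It was 0.51 higher in Ly49E+CD8aa+ cells than Ly49E+CD8aa- cells (adjusted p = 0.0121) and lower in Ly49E+CD8aa- cells than Ly49E-CD8aa+ cells (difference -0.53, adjusted p = 0.00935). Itgae, the CD103 chain that binds epithelial E-cadherin, was 0.31 higher in Ly49E+CD8aa+ cells than Ly49E+CD8aa- cells (adjusted p = 0.04) and lower in Ly49E+CD8aa- cells than Ly49E-CD8aa+ cells (difference -0.34, adjusted p = 0.0213). In the same comparison the receptor gene Cd160 was 0.86 higher and the chemokine gene Xcl1 was 0.50 higher in Ly49E+CD8aa- cells (adjusted p = 0.0102 and 0.0166). The Itgae call between the Ly49E+ populations was lost in 13 of 19 alternative settings. In Ly49E+CD8aa+ against Ly49E-CD8aa+, none of the 12 genes of the list with Cxcr4 and Cxcr3 was called (background 0.13%). Neither were any of the 14 residency genes or the 19 immediate early genes. At an unadjusted p under 0.05 stood 1, 2 and 1 of these lists (background 4.18%).

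**Figure D3:**
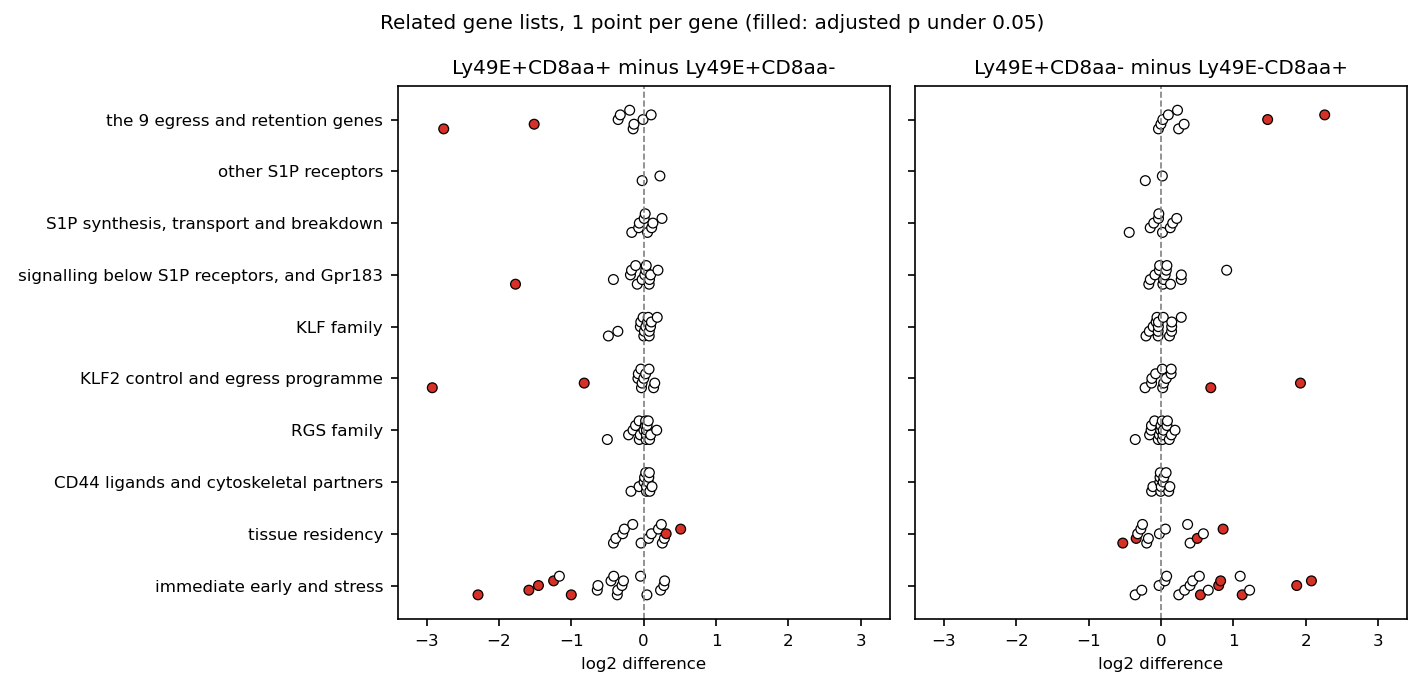
Log2 differences (horizontal axis) of the 9 genes and of each measured gene in the lists around them, by list, in the comparisons of Ly49E+CD8aa+ against Ly49E+CD8aa- (left) and of Ly49E+CD8aa- against Ly49E-CD8aa+ (right), with called genes filled. Most genes lie near 0. On the left Cxcr4, Cd44, Nr4a1 and Gpr183 lie farthest from it, at -2.92, -2.76, -2.29 and -1.77.

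Over all 9 arrays, the genes closest to each called gene were found by the root mean square difference of log2 values, each gene centred on its own mean. For Cd44, whose own values varied about their mean by 1.22, these were Tnfrsf26, a receptor of the tumour necrosis factor family, at 0.211, Itgal, the LFA-1 alpha chain, at 0.240, and Cd28, the costimulatory receptor, at 0.247. Itgal had 5.26, 5.48 and 5.52 in Ly49E+CD8aa+ cells, 8.37, 8.18 and 8.09 in Ly49E+CD8aa- cells, and 5.94, 5.93 and 5.33 in Ly49E-CD8aa+ cells. For Klf3, whose values varied by 0.741, they were Stom, which encodes the membrane protein stomatin, at 0.174, the sialyltransferase gene St6galnac3 at 0.190 and Arhgap26 at 0.216. Arhgap26 had 7.11, 6.95 and 6.74 in Ly49E+CD8aa+ cells, 8.78, 8.30 and 8.58 in Ly49E+CD8aa- cells, and 6.97, 7.07 and 7.24 in Ly49E-CD8aa+ cells. All 6 were high on the Ly49E+CD8aa- arrays, as the choice by likeness requires.

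**Figure D4:**
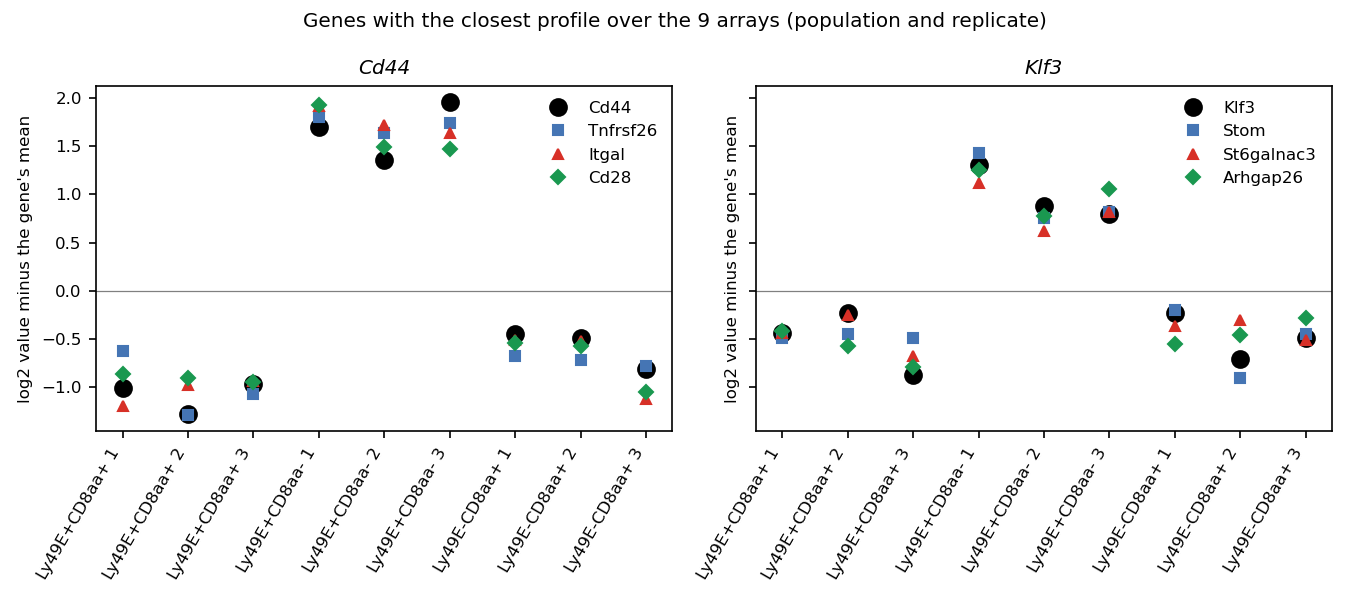
Log2 values minus each gene's mean (vertical axis) on the 9 arrays, for Cd44 and its 3 closest genes and for Klf3 and its 3 closest genes. In both panels the 3 Ly49E+CD8aa- arrays lie above 0 and the 3 Ly49E+CD8aa+ and 3 Ly49E-CD8aa+ arrays below it.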

How the data were processed

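Total RNA of the sorted cells was amplified (Ovation Pico WTA V2) and biotin-labelled, per the labels' protocols. The authors deposited log2 expression per transcript cluster and array, made by RMA as the submitters' processing notes name it. No source used here gives the RMA version, genome build or annotation, and no detection calls were used.

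Of 35556 rows, 21789 carried 1 gene symbol in the platform annotation, 1621 carried several and 12146 were not listed. In 999 genes with several rows the row with the highest mean was used, which left 19938 genes. All 9 genes had 1 row. The tests were those of limma 3.58.1 (R 4.3.3), 2-sided, from 1 model of population means over the 9 arrays with moderated variances. A gene counted as called at a Benjamini-Hochberg adjusted p under 0.05 over all 19938 genes. The fit was tested on simulated data. The number of arrays limits the precision, with a median SE of a difference of 0.0976.

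The 9 genes and all lists were chosen with earlier results of these data known. All 9 were named whatever their test, as were the sort markers, called genes of each pathway list (at most 4 per list and comparison, by size of difference) and the 3 closest profiles of each called gene. The called dendritic and macrophage markers, and the uncalled Itgax, Bst2, Irf8, Cd68, Pecam1 and Vwf, were named after their values were seen. Marker lists covered dendritic cells, enterocytes and endothelium, and macrophages, B cells and stroma, of which 1 of 8, 0 of 6 and 0 of 8 were called in any comparison. Over all genes 0.13% to 2.15% were called, by comparison. Some listed genes were not analysed here. Alternatives covered the arrays fitted, filters on dim rows, scaling, variance moderation, array weights, the row per gene, a replicate block and each array left out.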

Additional observations from a re-analysis of the deposited data

How the results depend on the processing

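Cd44 and Klf3 kept their direction and stayed called in both comparisons with Ly49E+CD8aa- under all 19 alternatives, 76 results in all. Cd44 ranged from -2.92 to -2.62 in Ly49E+CD8aa+ against Ly49E+CD8aa- and from 2.12 to 2.42 in Ly49E+CD8aa- against Ly49E-CD8aa+, and Klf3 from -1.66 to -1.33 and from 1.32 to 1.60. Of 434 results for uncalled genes and comparisons, 1 crossed the threshold, Klf2 as given above, and 25 changed sign while uncalled. The count of the 9 genes called stayed at 2 to 3, 0 to 0, 2 to 3 and 2 to 2 (F test, Ly49E+CD8aa+ against Ly49E-CD8aa+, Ly49E+CD8aa+ against Ly49E+CD8aa-, and Ly49E+CD8aa- against Ly49E-CD8aa+).

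Over all genes, calls in Ly49E+CD8aa+ against Ly49E-CD8aa+ were fewest and least stable: 26, against 0 with the 6 arrays of the pair alone, 17 with a replicate block, 16 with a median filter, 5 to 10 without any 1 of 8 arrays and 32 without the second Ly49E-CD8aa+ array, a range of 5 to 32. Calls in Ly49E+CD8aa- against Ly49E-CD8aa+ fell to 263 with 6 arrays, from 429, and F test calls to 248 without the third Ly49E+CD8aa- array, from 405. Same-numbered arrays of different populations correlated at -0.0627 to 0.222 in their deviations (9 pairs), and other-numbered ones at -0.169 to 0.104 (18 pairs), with 6 of 9 arrays best with their own number. The first arrays correlated with each other at 0.127 to 0.222. Since not every same-numbered pair exceeded 0.1 and no label ties the numbers to a shared animal or day, the numbers were not taken to pair the arrays. With a replicate block, Cd44 had adjusted p-values of 0.000136 and 0.000379 and Klf3 0.00334 and 0.00334.

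Among the listed genes, calls were also lost for Itgae in Ly49E+CD8aa- against Ly49E-CD8aa+ (7 of 19), Cd3e (9 of 19 in each comparison), Dusp1 (8), Fosb (7), Cxcr3 and Xcl1 in Ly49E+CD8aa- against Ly49E-CD8aa+ (5 each), Prdm1 in Ly49E+CD8aa+ against Ly49E+CD8aa- (4), Nfkbia in Ly49E+CD8aa- against Ly49E-CD8aa+ (3), and Cd160 there and Cxcr3 in Ly49E+CD8aa+ against Ly49E+CD8aa- (1 each). Marker calls were lost for Cd209d in Ly49E+CD8aa+ against Ly49E-CD8aa+ (6 of 18), Ccr2 and Clec9a in Ly49E+CD8aa- against Ly49E-CD8aa+ (5 of 19 and 3 of 17), and Siglech, Ly6d and Klra5 in Ly49E+CD8aa+ against Ly49E-CD8aa+ (1 each). The causes were not tested. S1pr1 and other dim rows carry no detection call.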

Other observations

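Klf12 and Ahr missed the threshold narrowly and were chosen after their values were seen. Klf12, a KLF family repressor, had 4.20, 4.45 and 4.11 in Ly49E+CD8aa+ cells and 4.83, 4.61 and 4.79 in Ly49E+CD8aa- cells, with no overlap, a difference of -0.49 and an adjusted p of 0.0546. Ahr, the aryl hydrocarbon receptor that intraepithelial lymphocytes need, averaged 8.82 in Ly49E+CD8aa+ cells and 9.21 in Ly49E+CD8aa- cells (difference -0.38, adjusted p = 0.065), and 8.84 in Ly49E-CD8aa+ cells (difference 0.37 in Ly49E+CD8aa- against Ly49E-CD8aa+, adjusted p = 0.068).

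Exactly repeated values, equal to 6 decimals, were common in the table. S1pr5 had 1 value on 4 arrays, and S1pr1 and Rgs1 each had 1 on 3 arrays. Of the 9 genes, 3 (33.3%) shared a value on 3 or more arrays, and 7223 of 19938 genes (36.2%) did.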
